A study of Mus musculus with 1019 samples.

Results

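Genes of 3 families of pre-mRNA splicing factors were followed in regulatory T cells (Tregs) sorted from spleen and from epididymal VAT, the visceral fat depot beside the testis. Members were all rows of the count table whose symbol begins with Srsf and a digit (SR genes), with Hnrnp (hnRNP genes), or with Sf3a or Sf3b and a digit (SF3 genes). The rule gave 40 of the 23725 genes: 11 SR, 20 hnRNP and 9 SF3 genes. Cells came from male B6 mice aged 20 months in both tissues and were sorted live for surface TCRb, CD4 and CD25. They were profiled in droplets by inDrops, which captures mRNA by its poly(A) end and marks every captured molecule with a random barcode, the UMI, so that amplified copies count once. The 1019 cells came from 1 spleen library and 2 VAT libraries, which the labels number 2 and 3. Spleens were dissociated mechanically and VAT by enzymes, so tissue and dissociation cannot be told apart.

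SR proteins bind exonic enhancers through an RNA recognition motif and recruit the spliceosome through a tail rich in arginine and serine, which CLK and SRPK kinases phosphorylate. hnRNP proteins coat nascent transcripts and often oppose the use of splice sites, and the SF3A and SF3B complexes belong to the U2 particle that holds the branch point. Many SR and hnRNP genes limit their own output through an alternative exon that sends the transcript to nonsense-mediated decay (NMD). T cells use these proteins to choose among isoforms of signalling and surface molecules, the CD45 gene Ptprc being a textbook case. Tags of 3′ ends measure the amount of a gene's mRNA and show nothing of how any transcript was spliced.

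The labels named no animal, so a library counted as 1 sample and no test was made between tissues. A level is given in CPM, a gene's UMIs scaled to a common library total. A ratio between libraries carries a 95% interval for counting error alone, which says nothing of the spread between animals. The libraries held 573622 (spleen), 556099 (VAT 2) and 548770 (VAT 3) UMIs, with medians of 1423, 1565 and 1611 per cell. Among spleen labels the source name gives spleen, whereas the tissue field names both tissues, and the replicate tag differs between the title and the sample type field. Spleen titles carry the number 2, as those of VAT library 2 do, but nothing in the labels ties the animals together. The 5 Treg markers summed to 1075, 2038 and 1727 UMIs and included Foxp3 at 385.3, 472.9 and 344.4 CPM. The 5 general T cell markers (Cd3e, Cd3g, Cd3d, Cd4 and Lck) were lower in VAT, at 1739, 1101 and 897 UMIs. Defining markers of B cells (1, 0 and 1 UMI over the list) and adipocytes (0, 3 and 3) were at or near 0, and the myeloid list held 5, 6 and 4 UMIs. The list for CD8 and NK cells held 28, 32 and 30 UMIs, all of Cd8b1, with Cd8a, Ncr1 and Klrb1c at 0. Erythroid genes (4 of 4 with UMIs in spleen) summed to 202.2 CPM in spleen and to 1.80 and 1.82 CPM, or 1 UMI each, in VAT, and the stromal and endothelial list to 30, 1 and 4 UMIs, of which Pecam1 gave 29, 1 and 2. Their part in the results was not tested, beyond the values given without cells that hold such UMIs. The 87 ribosomal protein genes took 30.1% of UMIs in spleen, 17.7% in VAT 2 and 19.7% in VAT 3. The spleen library shared no cell barcode with VAT 2 and 1 with VAT 3, and the VAT libraries shared 2.

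No member was 2-fold higher or 2-fold lower in both VAT libraries, and the summed level of the members was somewhat lower in VAT than in spleen. Together they took 0.804% of spleen UMIs (0.781% to 0.827%), 0.766% in VAT 2 (0.743% to 0.789%) and 0.717% in VAT 3 (0.694% to 0.739%). The hnRNP genes accounted for most of this, at 0.545%, 0.506% and 0.464% of UMIs, so their sum was lower in both VAT libraries than in spleen. SR genes took 0.147%, 0.164% and 0.145%, with VAT 2 above spleen and VAT 3 level with it within counting error. SF3 genes took 0.112%, 0.0960% and 0.108%, with VAT 2 below spleen and VAT 3 within counting error of it. In bulk sums of this kind, fewer expressing cells and less RNA per cell cannot be told apart.

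Of the 40 members, 37 had 50 or more UMIs over the 3 libraries: 9 SR, 19 hnRNP and all 9 SF3 genes. The remaining 3 were too sparse to compare. Srsf4, an SR protein with a long arginine and serine tail, had 13, 7 and 11 UMIs in spleen, VAT 2 and VAT 3. Srsf12 had 2, 1 and 0 UMIs, and Hnrnpul1 had 0, 5 and 1. A count of 0 allows up to 5.23 CPM in spleen and 5.47 CPM in VAT 3, taking 3 counts as the floor.

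**Figure D1:**
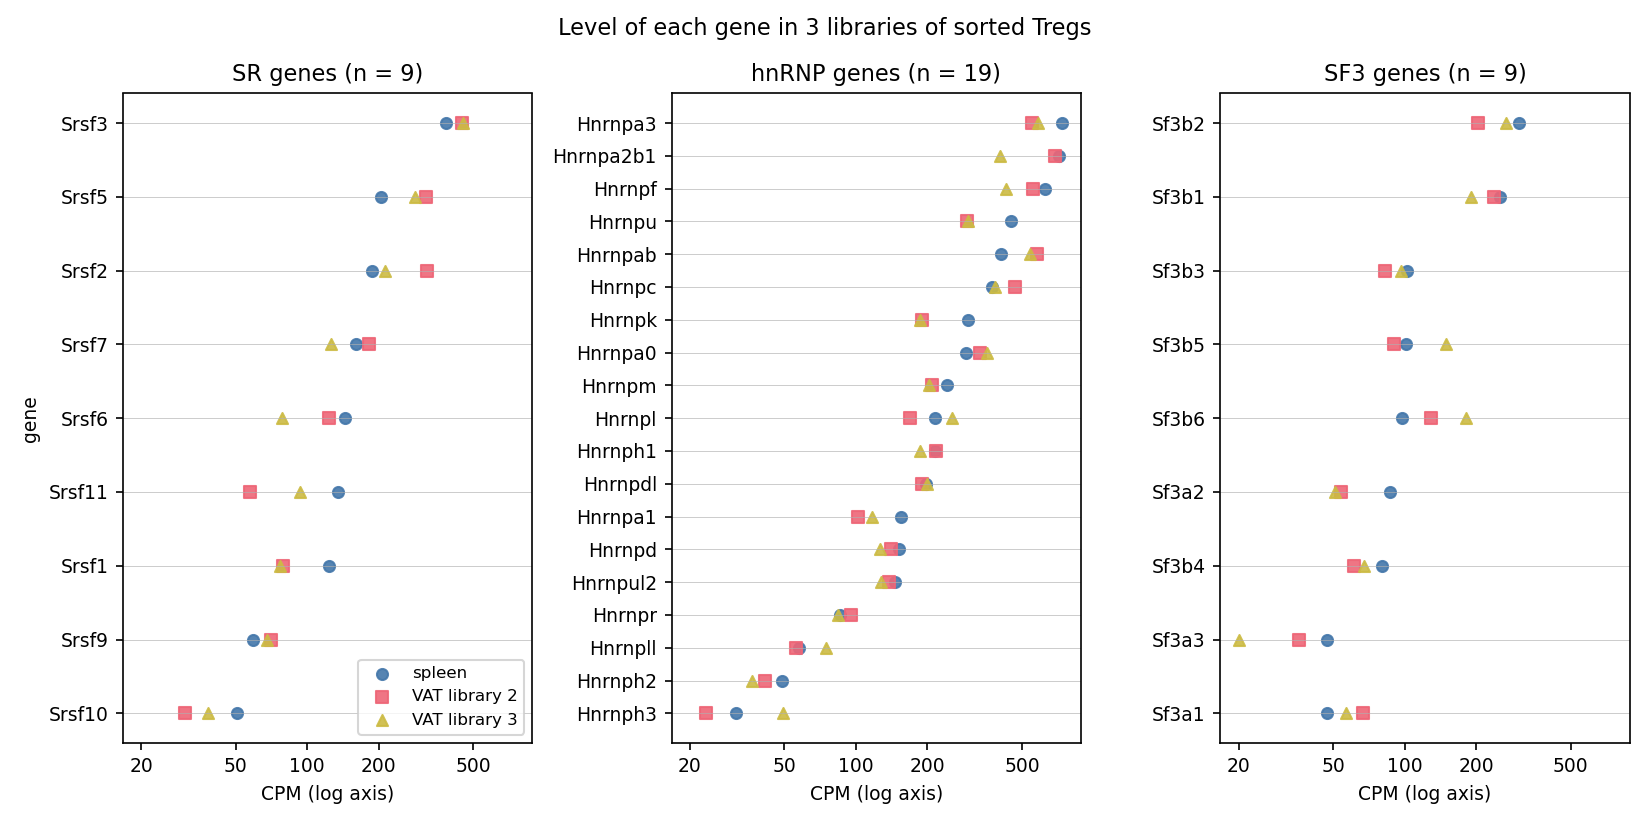
Level of the 37 members with 50 or more UMIs, in CPM on a log axis, 1 panel per family, genes ordered by their spleen level. Each point is 1 library; Srsf1, Hnrnpk, Hnrnpu and Sf3a2 have both VAT points together below the spleen point, whereas for Hnrnpa2b1 only VAT library 3 lies apart.

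A gene was counted as higher or lower when it passed a fold in both VAT libraries against the spleen library. At 2-fold, 0 of 37 members were higher and 0 were lower, against 10.3% of the 4635 genes with 50 or more UMIs that were higher and 4.4% that were lower. At 1.5-fold, 0 members were higher, against 17.9% of all such genes. At 1.5-fold 4 members were lower, which is 10.8% of them against 12.8% of all genes, a share near the background. The 4 were Srsf1, Hnrnpk, Hnrnpu and Sf3a2. The median log2 ratio over all 37 was -0.16 in VAT 2 and -0.22 in VAT 3, beside 0.04 and -0.02 over all genes. In both VAT libraries 9 members lay above the spleen level and 20 below it (24.3% and 54.1%), whereas all genes divided into 41.3% above and 40.5% below. The interquartile range of members was -0.41 to 0.18 in VAT 2 and -0.41 to 0.23 in VAT 3, beside -0.45 to 0.57 and -0.48 to 0.53 for all genes.

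By family, the hnRNP median was -0.11 in VAT 2 and -0.22 in VAT 3, with 3 genes above the spleen level in both libraries, 10 below in both and 6 split. The SF3 median was -0.31 and -0.18, with 2 above, 6 below and 1 split. SR genes had no common direction: the median was 0.18 in VAT 2 and -0.35 in VAT 3, with 4 above, 4 below and 1 split. Counting the library totals without ribosomal protein genes moved the median of all genes to -0.19 and -0.22, and moved every member down by about as much. On that scale 8 of 37 members were 1.5-fold lower, beside 20.9% of all genes. A rise over spleen that is smaller than this shift of the median therefore depends on the total used. Members below spleen lay further below it on that scale. When the 5% of cells richest in UMIs were left out of every library, none of the 4 genes passed 1.5-fold in both VAT libraries. There 2 others, Srsf10 and Sf3a3, were 1.5-fold lower, beside 12.8% of all genes. The ratios of the 4 moved little there, from a mean log2 ratio of -0.66 to -0.62 for Srsf1, -0.65 to -0.61 for Hnrnpk, -0.60 to -0.56 for Hnrnpu and -0.72 to -0.74 for Sf3a2. Among cells with no UMI of another cell type's marker, 1 of 37 members, Sf3b6, was 1.5-fold higher, against 19.1% of all genes. In the same cells 5 members were 1.5-fold lower (Srsf1, Srsf11, Hnrnpa1, Hnrnpk and Sf3a3), against 13.6% of all genes. Hnrnpu and Sf3a2 did not pass there, at mean log2 ratios of -0.51 and -0.45.

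**Figure D2:**
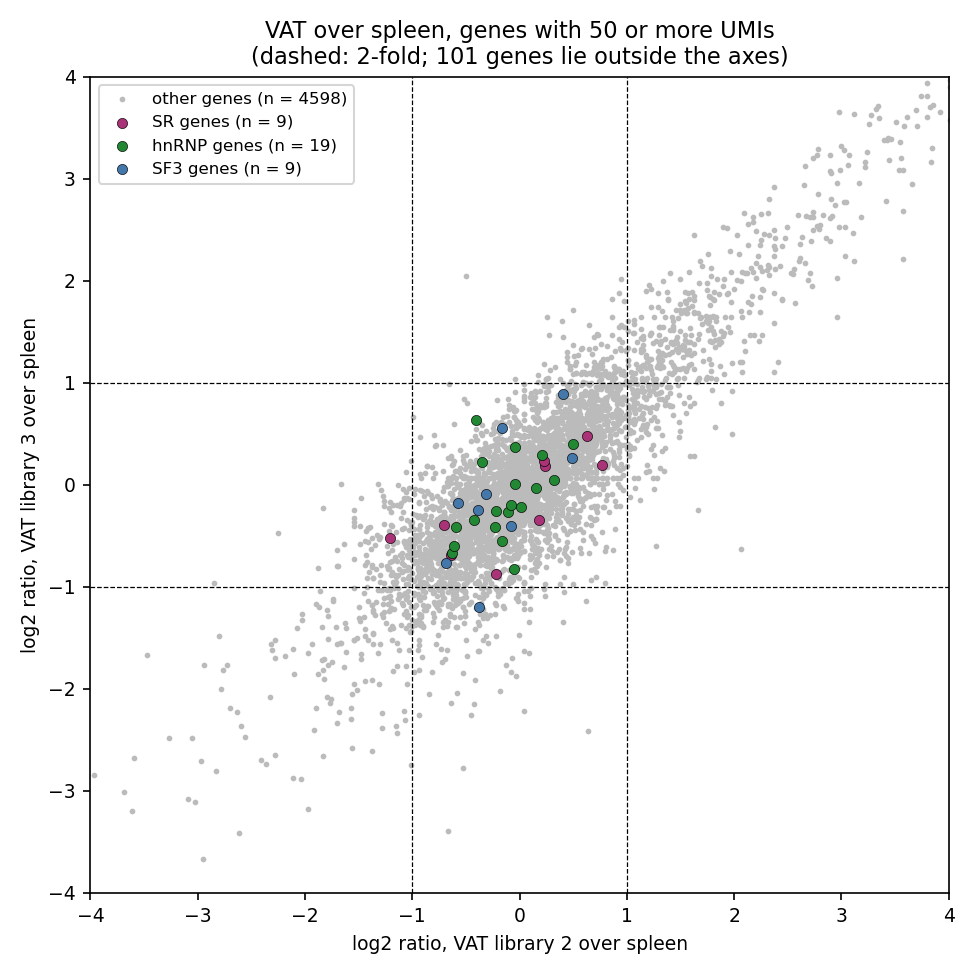
log2 ratio of VAT library 2 over spleen (horizontal) against VAT library 3 over spleen (vertical) for the 4635 genes with 50 or more UMIs, each point 1 gene, with the 37 members coloured by family and dashed lines at 2-fold. Both axes share the spleen library, which alone lines points up along the diagonal; no member lies beyond the dashed lines in both libraries, and the genes outside the axes include no member.

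The 4 genes that were lower in both VAT libraries come from all 3 families and from 4 chromosomes, and the promoters below show what lies around their start sites beside those of Srsf5 and Sf3b6, the genes with the highest mean ratio in VAT in the SR and SF3 families. Each is 300 bases of RefSeq (GRCm38.p6), 5′ to 3′ on the gene's own strand, mostly upstream of the RefSeq start. Capitals mark matches on either strand to any of 7 short motifs, listed after the sequences.
Srsf1, chr11:88047123-88047422, plus strand: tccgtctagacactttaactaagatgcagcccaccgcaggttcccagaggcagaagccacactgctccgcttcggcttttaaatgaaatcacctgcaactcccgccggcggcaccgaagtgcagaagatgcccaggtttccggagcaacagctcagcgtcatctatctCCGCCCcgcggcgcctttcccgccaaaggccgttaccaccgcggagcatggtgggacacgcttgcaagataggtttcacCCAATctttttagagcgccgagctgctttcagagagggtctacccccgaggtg
Hnrnpk, chr13:58402068-58402367, minus strand: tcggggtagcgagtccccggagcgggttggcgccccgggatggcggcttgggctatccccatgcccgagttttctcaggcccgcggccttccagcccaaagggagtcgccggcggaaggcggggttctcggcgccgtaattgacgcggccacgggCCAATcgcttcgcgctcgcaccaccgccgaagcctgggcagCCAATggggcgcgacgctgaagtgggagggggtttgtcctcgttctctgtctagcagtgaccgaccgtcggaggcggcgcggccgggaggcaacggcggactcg
Hnrnpu, chr1:178337766-178338065, minus strand: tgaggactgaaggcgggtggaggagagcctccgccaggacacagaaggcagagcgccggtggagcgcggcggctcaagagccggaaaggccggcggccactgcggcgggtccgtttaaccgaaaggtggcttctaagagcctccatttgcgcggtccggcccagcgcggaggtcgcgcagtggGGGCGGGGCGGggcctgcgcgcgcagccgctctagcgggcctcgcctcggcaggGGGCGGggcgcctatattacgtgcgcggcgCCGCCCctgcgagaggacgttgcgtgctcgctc
Sf3a2, chr10:80798485-80798784, plus strand: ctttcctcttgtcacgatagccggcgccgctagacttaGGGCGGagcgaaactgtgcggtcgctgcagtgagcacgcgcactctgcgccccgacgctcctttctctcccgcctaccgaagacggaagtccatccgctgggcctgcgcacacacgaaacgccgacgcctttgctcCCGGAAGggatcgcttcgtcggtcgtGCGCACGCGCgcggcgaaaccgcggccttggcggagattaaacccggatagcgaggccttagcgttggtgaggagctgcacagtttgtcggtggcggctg
Srsf5, chr12:80945249-80945548, plus strand: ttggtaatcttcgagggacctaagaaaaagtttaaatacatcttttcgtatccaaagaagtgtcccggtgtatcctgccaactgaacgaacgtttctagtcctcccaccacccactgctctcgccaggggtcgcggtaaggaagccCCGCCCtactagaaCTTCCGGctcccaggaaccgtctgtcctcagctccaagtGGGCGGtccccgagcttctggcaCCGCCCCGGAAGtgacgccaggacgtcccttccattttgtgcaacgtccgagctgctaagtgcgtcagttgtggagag
Sf3b6, chr12:4817358-4817657, plus strand: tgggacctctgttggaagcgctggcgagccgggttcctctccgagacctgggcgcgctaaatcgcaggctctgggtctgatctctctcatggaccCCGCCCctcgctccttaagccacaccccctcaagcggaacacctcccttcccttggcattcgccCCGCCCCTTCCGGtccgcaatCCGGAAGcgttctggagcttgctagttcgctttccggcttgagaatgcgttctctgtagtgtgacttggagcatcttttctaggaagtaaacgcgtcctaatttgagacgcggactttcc

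None of the 7 motifs was in all 6 sequences. The GC box (GGGCGG) is found once in Srsf1 and Sf3a2, 4 times in Hnrnpu (adjoining copies included), 3 times in Srsf5 and 2 times in Sf3b6, and is not among the letters of Hnrnpk, which holds 2 CCAAT boxes instead. An ETS motif (CCGGAAG) stands once in Sf3a2 and 2 times in each of Srsf5 and Sf3b6, and is in none of the other 3; in Srsf5 a GC box and an ETS motif share a base. Srsf1 also holds 1 CCAAT box, and Sf3a2 holds the NRF1 motif (GCGCNNGCGC).

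Promoters were found for 36 of the 40 members (Hnrnpll, Hnrnpul2, Sf3b4 and Sf3b5 had no entry). GC boxes were in 75% of them, against 35.9% of all 27025 promoters and 68.7% of the 3585 promoters of genes with 50 or more UMIs. CCAAT boxes were in 50% of member promoters, 37.9% of all and 38.3% of those of measured genes. By family they were in 12 of 18 hnRNP, 4 of 11 SR and 2 of 7 SF3 promoters. The ETS motif was in 33.3%, 9.12% and 21.6%. By family it was in 6 of 7 SF3, 4 of 11 SR and 2 of 18 hnRNP promoters. The NRF1 motif was in 22.2%, 6.43% and 16.7%, and TATAAA in 13.9%, 14.2% and 6.97%. Only 1 member promoter held the AP-1 motif TGANTCA (2.78% against 7.93% and 4.66%), and none held the cAMP response element TGACGTCA (1.88% of all and 3.32% of those of measured genes). Their median GC content was 63.3%, close to the 61.7% of measured genes and above the 52.7% of all promoters. These matches are letters in a window and were not tied to any measurement of binding.

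Among SR genes, Srsf3, a small SR protein that also carries mRNA to export receptors, had the highest level in every library. Its level was 383.5 CPM in spleen, 449.6 in VAT 2 and 451.9 in VAT 3, or 1.17 times spleen (0.974 to 1.41) and 1.18 times (0.979 to 1.42), intervals that include no difference. Levels of different genes are compared as tags: a UMI stands for 1 captured 3′ end and was not divided by length, and capture can differ between genes.

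Srsf5, an SR gene first known from growth-stimulated liver cells, was higher in both VAT libraries. It lies on chromosome 12 at 80945504 to 80950507 (GRCm38, GENCODE M21) and stood at 203.97, 316.5 and 284.3 CPM. The ratios to spleen were 1.55 (1.22 to 1.98) and 1.39 (1.09 to 1.79), and only VAT 2 passed 1.5-fold. On the full library totals, counting error does not cover the gap in either library. No interval was computed on totals without ribosomal protein genes. Srsf2, which marks nuclear speckles, was at 186.5, 318.3 and 213.2 CPM: VAT 2 was at 1.71 times spleen (1.33 to 2.19), whereas VAT 3 was within counting error at 1.14 (0.872 to 1.4998). A Srsf2 difference between tissues therefore rests on VAT 2.

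Srsf1, the founding SR protein, was lower in both VAT libraries. It lies on chromosome 11 at 88047373 to 88053755 and had 71, 44 and 42 UMIs, or 123.8, 79.1 and 76.5 CPM. The spleen level was 1.56 times that of VAT 2 (1.06 to 2.33) and 1.62 times that of VAT 3 (1.09 to 2.43). Srsf11 stood at 134.2, 57.5 and 92.9 CPM, with spleen 2.33 times VAT 2 (1.53 to 3.64) and 1.44 times VAT 3 (1.001 to 2.10). Srsf6 was lowest in VAT 3, at 144.7, 124.1 and 78.4 CPM, with spleen 1.17 times VAT 2 (0.837 to 1.63) and 1.85 times VAT 3 (1.26 to 2.73). Srsf7, an adaptor for mRNA export, was at 160.4, 181.6 and 125.7 CPM, with VAT 2 above and VAT 3 below spleen and both intervals including no difference. Srsf9 (59.3, 70.1 and 67.4 CPM) and Srsf10 (50.6, 30.6 and 38.3 CPM), an SR-like repressor active after heat shock, were too low for their ratios to stand clear of counting error.

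The make-up of the SR family does not depend on the library total. Srsf5 took 13.8% of SR gene UMIs in spleen (11.6% to 16.4%), 19.3% in VAT 2 (16.8% to 21.99%) and 19.6% in VAT 3 (16.9% to 22.6%). Srsf1 took 8.40% (6.62% to 10.5%), 4.82% (3.52% to 6.42%) and 5.28% (3.83% to 7.07%). The ratio of Srsf5 to Srsf1 UMIs, a pair chosen after the values were seen, was 1.65 in spleen (1.22 to 2.25), 4 in VAT 2 (2.86 to 5.70) and 3.71 in VAT 3 (2.63 to 5.35). Both VAT values lie above the spleen interval, and spleen lies below both of theirs.

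**Figure D3:**
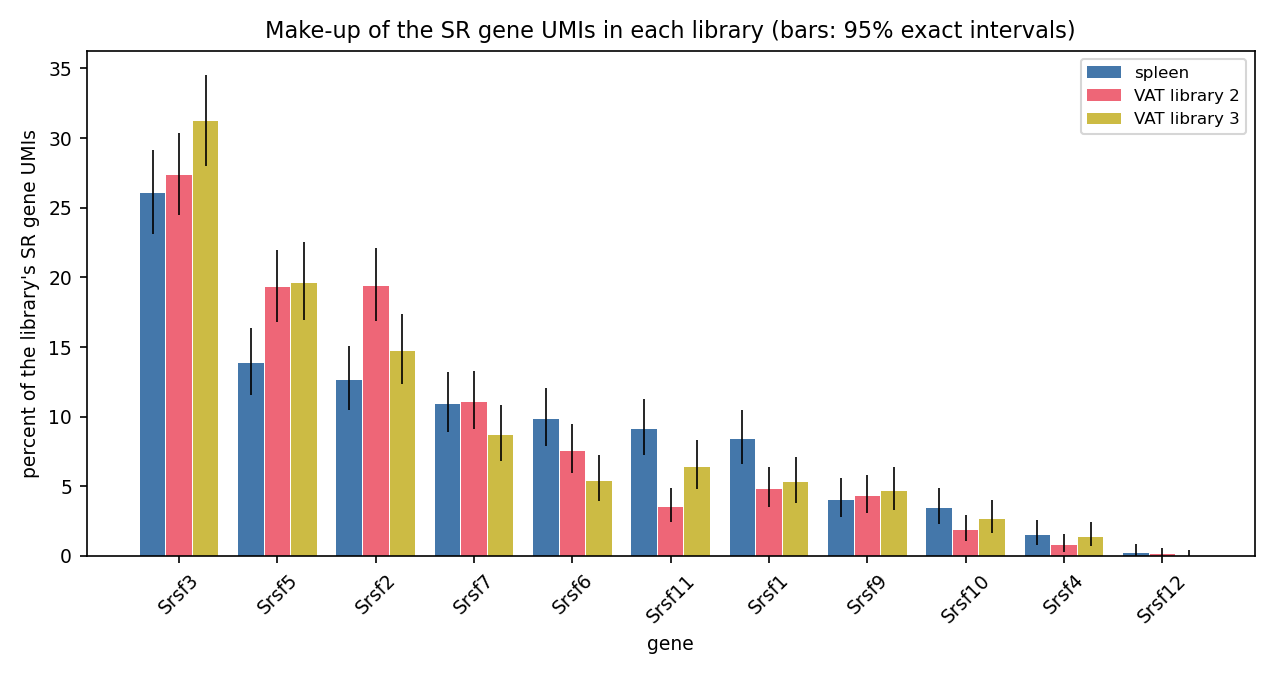
Percent of each library's SR gene UMIs that came from each of the 11 SR genes, with exact 95% intervals for counting error as thin lines. Srsf5 is taller in both VAT libraries (19.3% and 19.6%) than in spleen (13.8%), and Srsf1 is shorter (4.82% and 5.28% against 8.40%).

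Among hnRNP genes, levels ranged from 740.9 CPM (Hnrnpa3) to 31.4 CPM (Hnrnph3) in spleen. The A and B group, which package nascent RNA through paired recognition motifs, differed in direction. Hnrnpab, which also binds single-stranded DNA, was higher in both VAT libraries, at 407.9, 577.2 and 539.4 CPM. Its ratios to spleen were 1.42 (1.19 to 1.68) and 1.32 (1.11 to 1.58), clear of counting error in both on the full library totals. Hnrnpa0 was at 289.4, 334.5 and 355.3 CPM, with ratios of 1.16 (0.932 to 1.43) and 1.23 (0.993 to 1.52).

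Hnrnpa3, by contrast, was at 740.9, 550.3 and 584.9 CPM, so that spleen was 1.35 times VAT 2 (1.16 to 1.56) and 1.27 times VAT 3 (1.09 to 1.47). Near-identical copies of its 3′ end stand at 30 other places in the genome, so reads from a copy could have been counted with it or lost. Hnrnpa1, a well-studied repressor of exon inclusion, was at 155.2, 102.5 and 116.6 CPM. Its ratio of 0.661 in VAT 2 (0.465 to 0.932) lay clear of counting error, and that of 0.752 in VAT 3 (0.536 to 1.05) did not. Hnrnpa2b1 was at 716.5 CPM in spleen and 692.3 in VAT 2, a ratio of 0.966 (0.839 to 1.11), but at 402.7 in VAT 3. The VAT libraries thus differed from each other 1.72-fold (1.45 to 2.04), and VAT 2 did not differ from spleen beyond counting error. Its highest cell held 13 UMIs in spleen, 10 in VAT 2 and 8 in VAT 3.

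Hnrnpk and Hnrnpu were the hnRNP genes past 1.5-fold. Hnrnpk, which binds stretches of C through KH domains, lies on chromosome 13 at 58391142 to 58403343 and was at 296.4, 190.6 and 185.9 CPM. Spleen was 1.55 times VAT 2 (1.21 to 2.001) and 1.59 times VAT 3 (1.24 to 2.06). Hnrnpu, a nuclear matrix protein that binds both RNA and chromatin, lies on chromosome 1 at 178321108 to 178337797 and was at 449.8, 294.9 and 297.03 CPM. Spleen was 1.53 times VAT 2 (1.25 to 1.87) and 1.51 times VAT 3 (1.24 to 1.85). For both genes the VAT libraries were within 1.03-fold of each other. Hnrnpk overlaps exons of the opposite-strand gene Rmi1 and has 2 near-identical copies elsewhere, and Hnrnpu overlaps Cox20. Among other members, Srsf1 overlaps opposite-strand exons of Gm11508, Srsf2 those of Mettl23 and Mfsd11, and Hnrnpab those of Phykpl. The strand used in counting was not given in the sources used here, so reads of such partners cannot be told apart.

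Within the hnRNP sum, Hnrnpab took 7.49% in spleen, 11.4% in VAT 2 and 11.6% in VAT 3, and Hnrnpk took 5.44%, 3.77% and 4.01%. The ratio of Hnrnpab to Hnrnpk UMIs, a pair chosen after the values were seen, was 1.38 in spleen (1.12 to 1.69), 3.03 in VAT 2 (2.42 to 3.81) and 2.90 in VAT 3 (2.31 to 3.67). Hnrnpa0 to Hnrnpa3, chosen in the same way, was 0.391, 0.608 and 0.607.

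Hnrnpf and the H group bind runs of G. Hnrnpf was at 625.8, 559.3 and 428.2 CPM, with spleen 1.12 times VAT 2 (0.959 to 1.31) and 1.46 times VAT 3 (1.24 to 1.73), so its gap rests on VAT 3. Hnrnph1 was at 216.2, 217.6 and 185.9 CPM and Hnrnph2 at 48.8, 41.4 and 36.4. Hnrnph3 was at 31.4, 23.4 and 49.2 CPM, a spread of 2.10-fold between the VAT libraries on 13 and 27 UMIs. Hnrnpc, which binds runs of U, was at 373.1, 467.5 and 386.3 CPM and was clear of counting error in VAT 2 alone (1.25, 1.04 to 1.51).

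Hnrnpl and Hnrnpll are the pair known for silencing variable exons of Ptprc. Hnrnpl was at 216.2, 169.03 and 253.3 CPM: VAT 2 lay below spleen (0.782, 0.592 to 1.03) and VAT 3 above it (1.17, 0.913 to 1.505). Hnrnpll, which is raised in activated and memory T cells, had 33, 31 and 41 UMIs, with ratios of 0.969 (0.574 to 1.63) and 1.30 (0.801 to 2.12). Neither gene had a direction shared by both VAT libraries. The other hnRNP genes lay closer to spleen: Hnrnpd, which binds AU-rich elements in mRNA, at 151.7, 140.3 and 125.7 CPM, Hnrnpdl at 196.99, 190.6 and 198.6, Hnrnpm at 242.3, 208.6 and 202.3, Hnrnpr at 85.4, 95.3 and 83.8, and Hnrnpul2 at 146.4, 138.5 and 127.6. All of their intervals against spleen include no difference.

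**Figure D4:**
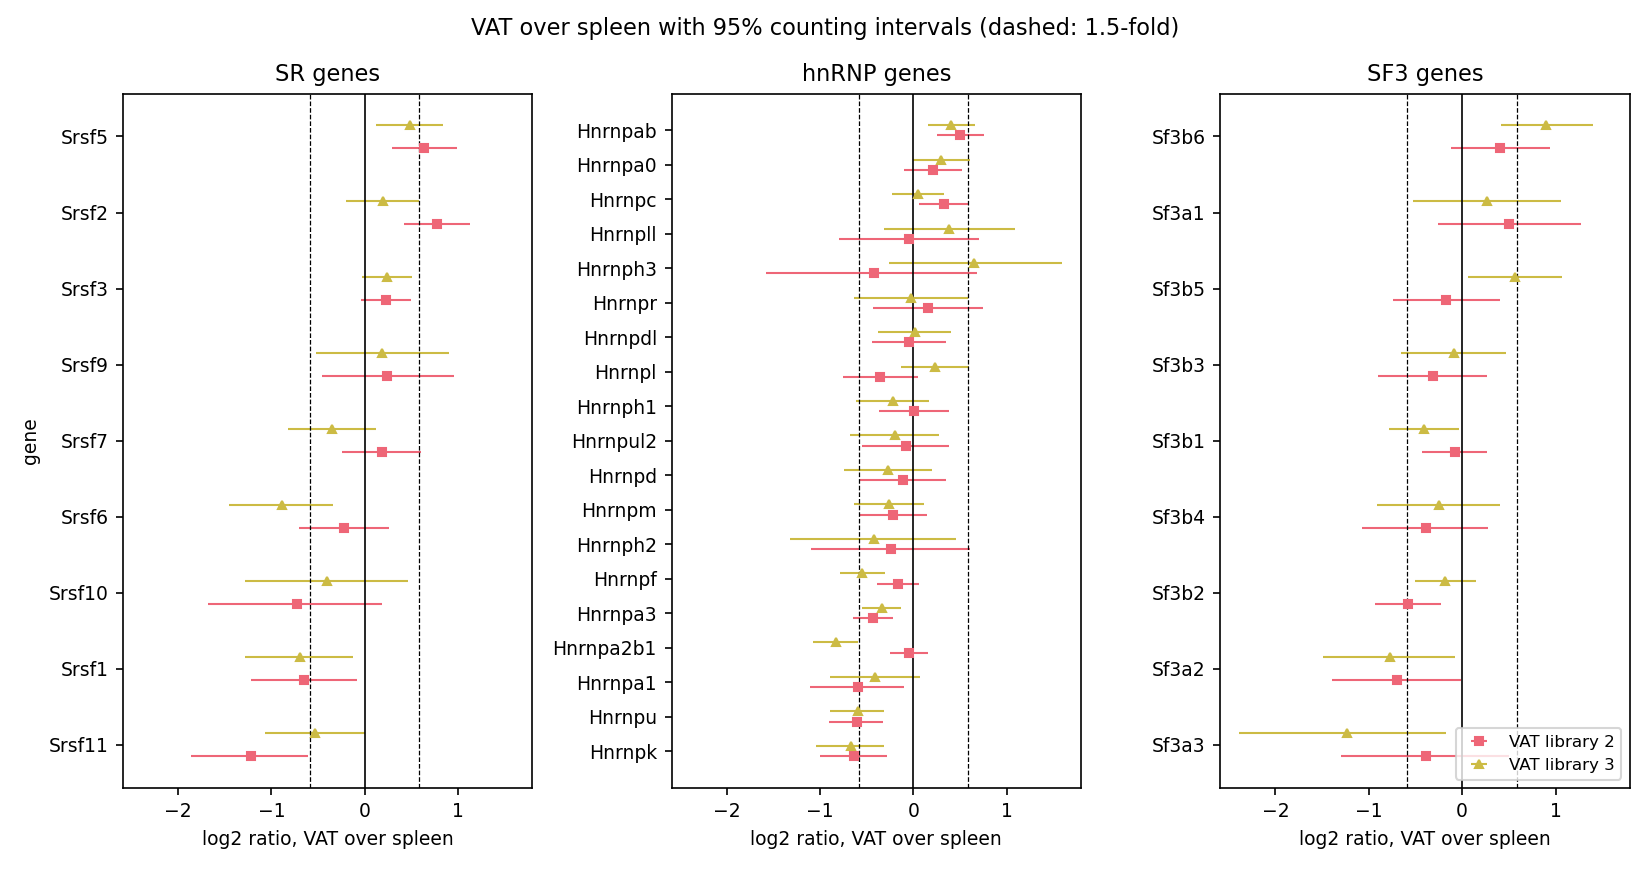
log2 ratio of each VAT library over spleen for the 37 members, with exact 95% intervals for counting error, 1 panel per family, ordered by the mean of both ratios; dashed lines mark 1.5-fold and the solid line no difference. Points of Srsf1, Hnrnpk, Hnrnpu and Sf3a2 lie left of the lower dashed line in both libraries, and no gene lies right of the upper one in both.

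In the SF3 family, Sf3b1, the scaffold that clasps the branch site, was at 251.04, 237.4 and 189.5 CPM, and Sf3b2 at 303.3, 203.2 and 267.9 CPM. Sf3b1 was clear of counting error in VAT 3 alone (0.755, 0.581 to 0.978) and Sf3b2 in VAT 2 alone (0.670, 0.524 to 0.854). Sf3b3 (102.9, 82.7 and 96.6 CPM) and Sf3b4 (80.2, 61.1 and 67.4 CPM) were below spleen in both libraries, within counting error.

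Sf3b6, the small protein that touches the branch point adenosine, was the member with the highest ratio in VAT 3. It lies on chromosome 12 at 4817544 to 4827659 and had 56, 72 and 100 UMIs, or 97.6, 129.5 and 182.2 CPM. The ratio was 1.33 in VAT 2 (0.922 to 1.92) and 1.87 in VAT 3 (1.33 to 2.64), so only VAT 3 stands clear of counting error. Sf3b5, another small subunit, was at 101.1, 89.9 and 149.4 CPM, below spleen in VAT 2 (0.889, 0.597 to 1.32) and above it in VAT 3 (1.48, 1.04 to 2.11).

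Of the SF3A complex, Sf3a2 was lower in both VAT libraries. It lies on chromosome 10 at 80798198 to 80804924, overlaps exons of Plekhj1 on the other strand, and had 50, 30 and 28 UMIs, or 87.2, 53.9 and 51.02 CPM. Spleen was 1.62 times VAT 2 (1.01 to 2.63) and 1.71 times VAT 3 (1.05 to 2.82), intervals that come close to no difference. Among cells with a Foxp3 UMI its mean log2 ratio was -0.15, so the call did not hold there. Sf3a1 was at 47.1, 66.5 and 56.5 CPM and Sf3a3 at 47.1, 35.96 and 20.04 CPM, the latter on 27, 20 and 11 UMIs. Sf3a3 was within counting error of spleen in VAT 2 (0.764, 0.406 to 1.41) and clear of it in VAT 3 (0.426, 0.191 to 0.887). As a share of SF3 UMIs, Sf3b6 took 8.74% in spleen (6.67% to 11.2%), 13.5% in VAT 2 (10.7% to 16.7%) and 16.9% in VAT 3 (13.9% to 20.1%). Its ratio to Sf3a2, a pair chosen after the values were seen, was 1.12 in spleen (0.751 to 1.67), 2.40 in VAT 2 (1.55 to 3.81) and 3.57 in VAT 3 (2.33 to 5.64).

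The VAT libraries differed from each other 1.5-fold in 6 of 37 members, or 16.2%, against 19% of all genes. VAT 2 was the higher in Srsf6, Hnrnpa2b1 and Sf3a3, and VAT 3 in Srsf11, Hnrnph3 and Sf3b5. Counted the same way, 1 library against another, 9 of 37 members were 1.5-fold apart from spleen in VAT 2 and 9 in VAT 3. Of the 4635 genes compared, 2016 were that far from spleen in VAT 2 and 2044 in VAT 3. The share among members was therefore below that of all genes in both libraries.

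Cell by cell, members were found in nearly every Treg. After each cell was thinned at random to 800 UMIs (no cell held fewer), the summed members averaged 6.37 UMIs in spleen, 6.18 in VAT 2 and 5.83 in VAT 3, with medians of 6, 6 and 5. Cells without any member UMI made up 1.07%, 0.606% and 0.637%. SR genes averaged 1.19, 1.36 and 1.12 UMIs per cell, hnRNP genes 4.29, 4.07 and 3.82, and SF3 genes 0.896, 0.742 and 0.885. The variance over the mean ran from 1.28 to 1.76 across families and libraries, so cells differed more than independent UMIs would, and the counting intervals given here are too narrow by an amount that was not estimated. Spearman's rho between 2 families' sums within a library ran from -0.074 to 0.147 over cells that share a library and a depth, a description in sparse counts. When the cells of each library were parted into 3 depth classes, the members' share of UMIs ran from 0.685% to 0.835% and followed no common order.

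**Figure D5:**
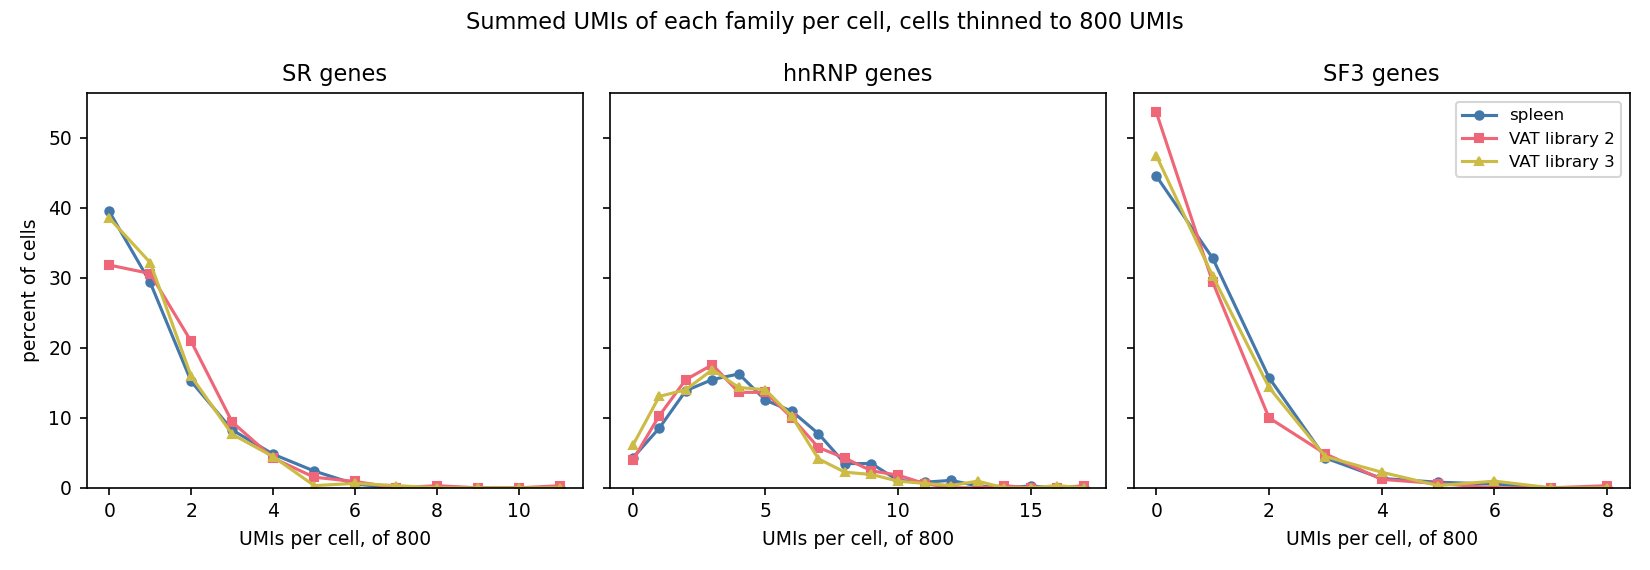
Percent of cells (vertical) that held a given number of UMIs of each family (horizontal) after thinning to 800 UMIs per cell, 1 line per library. The lines of a family have a similar shape, and the share of cells with no SR UMI is 39.5% in spleen, 31.8% in VAT 2 and 38.5% in VAT 3.

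At 800 UMIs per cell each gene was seen in a minority of cells. A Hnrnpa3 UMI was found in 39.5% of spleen cells (34.5% to 44.6%), 32.4% of VAT 2 cells (27.4% to 37.8%) and 34.1% of VAT 3 cells (28.8% to 39.6%), and without thinning in 58.1%, 51.8% and 52.2%. A Hnrnpk UMI was found in 20.5% (16.6% to 24.98%), 13.9% (10.4% to 18.2%) and 11.5% (8.16% to 15.5%), and without thinning in 33.3%, 26.4% and 26.7%. Srsf3 was seen in 20.8%, 28.2% and 23.6%, and without thinning in 29.6%, 40.6% and 35.7%. These genes are used by all cell types, so the sort offers no cell type that should lack them and no share due to free RNA could be set beside these.

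Splicing factors outside the families were described from 6 lists, whose counts of genes 1.5-fold lower are small and are read against the 12.8% of all genes. Of U1, U2, U4, U5 and Sm proteins, 20 of 24 had 50 or more UMIs, their medians were -0.37 and -0.52, and 3 were 1.5-fold lower in both VAT libraries (Snrpa, Snrnp40 and Sart1, named for passing it). The 3 with the most UMIs were the Sm proteins Snrpg (366.1, 275.1 and 266.1 CPM), Snrpb (348.7, 217.6 and 233.2) and Snrpf (261.5, 221.2 and 264.2). Of the partners that recognise splice sites, 13 of 14 were measured, with medians of -0.02 and -0.54 and 3 lower (Rbm17, Luc7l and Luc7l3). Luc7l2, a companion of the U1 particle, was at 455.003, 309.3 and 313.4 CPM, the branch point binder Sf1 was at 252.8, 210.4 and 184.05, and Puf60 was at 186.5, 183.4 and 116.6. Of SR-related proteins, 18 of 21 were measured, with medians of -0.22 and -0.40 and 1 lower (Pnisr, 132.5, 79.1 and 83.8 CPM). Son, a core protein of nuclear speckles, was at 381.8, 278.7 and 204.1 CPM, whereas its neighbour there, Srrm2, was at 277.2, 285.9 and 280.6, and Rbm39 was at 254.5, 208.6 and 282.4. Genes of the exon junction complex and NMD (9 of 15 measured) had medians of -0.25 and -0.23 and none past 1.5-fold, with Sap18 at 366.1, 350.7 and 426.4 CPM, Rbm8a at 169.1, 142.1 and 143.96 and Smg1 at 146.4, 129.5 and 123.9.

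The remaining lists held the only genes past 1.5-fold higher, 1 of 9 and 3 of 31, shares no larger than the 17.9% of all genes. Among the kinases, phosphatase and import factors of SR proteins (9 of 10 measured, medians 0.02 and 0.00), Clk1, a kinase that releases SR proteins from speckles, had 45, 73 and 73 UMIs. It was 1.67 times spleen in VAT 2 (1.14 to 2.48) and 1.70 times in VAT 3 (1.15 to 2.52), whereas Dyrk1a had 54, 53 and 66 UMIs and the phosphatase subunit Ppp1ca was at 522.99, 559.3 and 504.8 CPM. Among other RNA-binding regulators (31 of 34 measured, medians -0.07 and -0.10), Ddx5, a DEAD-box helicase, was at 917, 1613 and 1523 CPM, or 1.76 and 1.66 times spleen. Qk (43, 64 and 70 UMIs) and the cold-inducible Cirbp (11, 25 and 18) also passed 1.5-fold and are named for it. Mbnl1, which steers tissue-specific exons, was at 648.5, 602.4 and 603.2 CPM, and Pcbp2 was at 547.4, 447.8 and 386.3. No gene of these lists passed 2-fold in both libraries.

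In the GENCODE M21 annotation, 9 of 11 SR genes (81.8%), 10 of 20 hnRNP genes (50%) and 1 of 9 SF3 genes (11.1%) have a transcript classed as a target of NMD, against 30.8% of 4406 protein-coding genes with 50 or more UMIs. Members had a median of 7 annotated transcripts, against 6. Of the 4 genes lower in VAT, Srsf1, Hnrnpk and Hnrnpu have such a transcript and Sf3a2 does not; Srsf5 also has one, and Hnrnpab and Sf3b6 do not. The tags do not separate these transcripts from the coding ones. The members lie on 17 chromosomes, 9 have near-identical copies of their 3′ end elsewhere (Hnrnpa3 with 30 and Hnrnpf with 9 the most), and 15 overlap exons of a gene on the other strand.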

How the data were processed

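The values used are raw UMI counts in a table that the authors deposited, genes in rows and cells in columns. The submitters' processing notes name TopHat2, SAMtools and the build mm10. The counting annotation, its strand, the cell filter and any doublet removal are not stated (not given in the sources used here), and no doublet caller was run. Each of the 1019 columns matched 1 sample by title, and tissue came from the source name. The members and the 6 lists of other splicing genes were chosen with earlier results of these data known.

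Counts were added up per library: 375 spleen cells of 819 to 4244 UMIs each, 330 cells of VAT 2 (887 to 3725) and 314 of VAT 3 (916 to 4973). log2 ratios add 0.5 to each count; printed ratios do not. Intervals are exact binomial ones (Clopper-Pearson, conditional on the summed count for ratios) at 95% and cover counting error only. With 1 spleen library no count model was fitted. Genes needed 50 or more UMIs over the 3 libraries. All members are accounted for, and of each other list the 3 genes with the most UMIs and any past 2-fold in both VAT libraries are named; genes past 1.5-fold were named after their values were seen. Cells were thinned to 800 UMIs (seed 0). A near-identical copy matches the last 500 transcript bases at 95% identity over 100 or more bases (BLAST 2.17.0). Only the 2-fold size rule was tested on simulated counts, drawn without extra spread between cells. The 1.5-fold rule was not tested in this way. Python 3.11.15, NumPy 2.4.6, pandas 2.3.3 and SciPy 1.17.1 were used. There were 13 alternatives: other totals and size factors, other filters, thinned or averaged cells, subsets of cells (356, 313 and 298 without the richest 5%; 130, 128 and 98 with a Foxp3 UMI; 249, 295 and 276 without marker UMIs of another cell type), another pseudocount, and leaving out each VAT library.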

Additional observations from a re-analysis of the deposited data

How the results depend on the processing

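Over 13 alternatives, 3 mean log2 ratios of single members left the range spanned by the 95% counting intervals of their VAT 2 and VAT 3 ratios, and none of the 4 genes lower in VAT changed sign. The sign changed in 13 members under an alternative that kept both VAT libraries, such as Hnrnph2 (-0.32 to 0.28 in thinned cells), and 16% of the values moved by more than the gap between the VAT libraries. The 3 were Hnrnpab (0.45 to 0.14) and Hnrnpr (0.07 to -0.84) in cells with a Foxp3 UMI, and Srsf3 (0.23 to 0.53) without cells that hold a marker UMI of another type. The number 1.5-fold lower was 4. It was 8 of 37 with totals free of ribosomal protein genes, beside 20.9% of all genes at 1.5-fold. Those totals also moved the all-gene calls at 2-fold to 8.26% higher and 7.29% lower. Without the 5% of cells with the most UMIs, 2 members were 1.5-fold lower, beside 12.8% of all genes. The number lower was 7 without VAT library 2 and 7 without VAT library 3, where the rule rests on 1 VAT library. Of all genes, 20.9% and 19.3% were lower in these settings. Srsf1 and Hnrnpk each passed 1.5-fold under 11 of the 13, Sf3a2 under 9 and Hnrnpu under 8. The number 1.5-fold higher was 0, and it was 1 with no filter on UMIs (Hnrnpul1), 1 without marker-bearing cells (Sf3b6), 2 without VAT library 2 and 2 without VAT library 3. Of all genes, 16.5%, 19.1%, 23.1% and 24.2% were higher in these settings, in that order. The number of members 2-fold higher was 0, and 1 with no filter (Hnrnpul1 again), beside 11.1% of all genes. The number 2-fold lower was 0, and 1 without VAT library 2 (Sf3a3) or VAT library 3 (Srsf11). Of all genes, 8.82% and 7.40% were lower there. In cells with a Foxp3 UMI the median of SR genes was 0.28 (-0.08 over all cells), that of SR-related proteins -0.64 and that of splice site partners -0.66. With totals free of ribosomal protein genes the exon junction and NMD list was at -0.46 (-0.24 otherwise). The causes were not tested. Over the alternatives, medians ran from -0.35 to 0.28 for SR, -0.38 to -0.05 for hnRNP and -0.46 to -0.14 for SF3 genes. Shares of cells with a UMI follow depth: with another thinning all but 54 of them moved beyond their interval. No paired analysis was possible because the comparison has 1 spleen library and no animal is named. Depth limits genes with few UMIs, where intervals span more than 2-fold.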
